A study of Mus musculus with 18 samples.

Results

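Imprinted genes are transcribed mainly from the chromosome of a single parent, and several of them act on fetal growth. Such genes lie in clusters, in which long noncoding RNAs transcribed from the opposite parental chromosome often sit beside protein-coding growth regulators. Kcnq1ot1, a long nuclear RNA made from the paternal chromosome, silences neighbours such as Cdkn1c in cis. H19 and Meg3 are maternally expressed noncoding RNAs, with Igf2 and Dlk1 as their paternally expressed partners. Described here are 10 genes of this kind, namely the noncoding RNAs Kcnq1ot1, H19 and Meg3 and the protein-coding genes Cdkn1c, Dlk1, Peg3, Zim1, Plagl1, Grb10 and Mest. They were chosen by gene symbol, out of 18193 genes to which the array annotation gives a symbol of their own. They are measured by 34 probe sets of the 45037 tested, of which Meg3 has 11, Kcnq1ot1 6, Peg3 5, Grb10 and Plagl1 3 each, Dlk1 2, and Cdkn1c, Mest, Zim1 and H19 1 each. The annotation gives the H19 probe set to both H19 and Mir675, the microRNA gene that lies within H19, so that its signal is reported as H19/Mir675.

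The lungs came from BALB/c mouse fetuses at gestational day (GD) 18 or 17 whose dams received daily subcutaneous injections. At each day there were flutamide-treated males (18 flut and 17 flut), whose dams received 1 mg per day of the pure antiandrogen flutamide, vehicle-injected males (18 m and 17 m) and vehicle-injected females (18 f and 17 f). All dams, controls included, were injected, and the vehicle held gelatin and dimethylsulfoxide in saline. Each of the 6 groups had 3 RNA pools, 18 in all, and each pool joined lung RNA of 3 fetuses of the same sex from distinct litters, so that the spread is that between pools of whole lung and the animals within a pool are not seen. Values are log2 intensities of Affymetrix MOE430 2.0 arrays, and in such bulk samples fewer cells of a type and less RNA per cell cannot be told apart. A difference is written as called when its adjusted p (limma, Benjamini-Hochberg over all 45037 probe sets of a comparison) was under 0.05. Some counts at an unadjusted p under 0.05 are also given. The share of all probe sets or genes at that level was not counted, so the backgrounds given are for called differences only.

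The lung epithelium genes, surfactant protein genes and Nkx2-1 among them, averaged 11.2 to 11.5 in 18 flut, against 11.1 in 18 m and 11.2 to 11.4 in 18 f. At GD17 they averaged 9.42 to 9.67 in 17 flut, against 8.44 to 9.33 in 17 m and 8.63 to 9.28 in 17 f, so that the 17 flut pools lay above both other groups. Several pools stood apart. Pool 18 flut 3 had Xist, the RNA of the inactive X chromosome of females, at 11.9 against 8.15 and 8.08 in the other 18 flut pools, and its 3 measured Y-linked genes averaged 7.14 against 8.30 and 8.25, so that it does not match a pool of males alone. Pool 18 m 3 had the highest level of 10 liver genes of all pools (12.1), and the difference between 5′ and 3′ probe sets of the Bacillus control RNAs (dap, lys, phe and thr) was -2.65 there against -1.10 and -1.18 in the other 18 m pools. Pools 17 m 3, 17 f 2 and 17 f 3 carried 9 exocrine pancreas genes at up to 9.75 in 17 m and 10.3 in 17 f, whereas 17 flut pools lay between 5.92 and 6.05. Many of the calls that ended without these pools are given with the value without them, and each call was also refitted with every single pool left out in turn (18 single-pool refits).

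**Figure D1:**
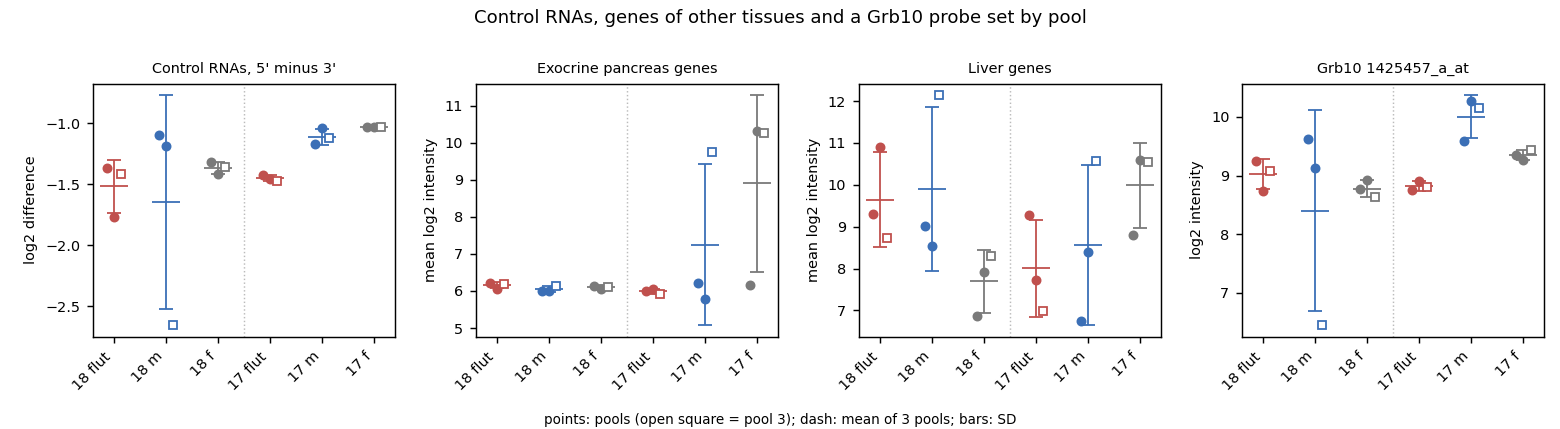
Left to right, the 5′ minus 3′ log2 difference of the control RNAs (median of 8 pairs), the mean log2 intensity of exocrine pancreas genes and of liver genes, and the log2 intensity of the Grb10 probe set 1425457_a_at. Points are the 3 pools of each group (pool 3 as an open square), dashes their mean and bars the SD. Pool 18 m 3 lies at -2.65, 12.1 and 6.44 for the control RNAs, the liver genes and Grb10.

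The promoters of Kcnq1ot1 and Meg3, the noncoding RNAs on which most differences fell, are given to show the starts of these transcripts. They run from 250 bases before the RefSeq start to 50 after it (build GRCm38.p6, 300 bases, 5′ to 3′ on the strand of the gene), with CCAAT or its reverse complement ATTGG in capitals. The Kcnq1ot1 start lies at chr7:143296498-143296797 on the minus strand, within an intron of Kcnq1, and the first Meg3 start at chr12:109540746-109541045 on the plus strand.
Kcnq1ot1: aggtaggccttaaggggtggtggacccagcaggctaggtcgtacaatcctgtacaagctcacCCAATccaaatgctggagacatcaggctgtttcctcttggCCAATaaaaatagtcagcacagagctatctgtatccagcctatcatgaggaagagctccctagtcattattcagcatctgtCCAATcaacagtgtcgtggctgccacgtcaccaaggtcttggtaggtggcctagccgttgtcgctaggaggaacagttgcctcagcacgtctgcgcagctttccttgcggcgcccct
Meg3: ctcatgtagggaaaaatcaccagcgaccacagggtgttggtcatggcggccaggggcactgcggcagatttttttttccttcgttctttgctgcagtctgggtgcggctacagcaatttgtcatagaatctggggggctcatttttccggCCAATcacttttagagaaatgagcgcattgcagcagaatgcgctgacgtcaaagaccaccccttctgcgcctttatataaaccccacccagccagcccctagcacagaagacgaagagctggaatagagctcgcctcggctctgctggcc
The Kcnq1ot1 promoter held 3 such motifs and 9 CpG dinucleotides, and that of Meg3 held 1 and 13. Of 32851 mouse promoters of the same length, 37.4% held CCAAT on either strand and 3.37% held it 3 or more times, and the median number of CpG was 7. The androgen receptor motif TGTTCT, searched on both strands, was in 19% of all promoters and in 0 of the 12 member promoters that could be matched, which belong to 8 of the 10 genes. The absence of these letters from this window says nothing of the receptor elsewhere. The microRNA to which the annotation also gives the H19 probe set is shown by its mature forms with the seed, bases 2 to 8, in capitals. The mature forms themselves were not measured here.
miR-675-3p: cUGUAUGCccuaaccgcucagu
miR-675-5p: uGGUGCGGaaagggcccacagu

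Across the 10 genes, flutamide calls lay in Kcnq1ot1, Meg3, Grb10 and Peg3 and all ran downward, sex calls lay in Kcnq1ot1, Meg3 and Grb10, and calls between days lay in Meg3, Kcnq1ot1, Dlk1, Cdkn1c and Grb10, most of them in Meg3. In 18 flut vs. 18 m, 2 of the 34 member probe sets were called, both lower in 18 flut, whereas 3.95% of all probe sets tested were called (0.735% higher and 3.21% lower). In 17 flut vs. 17 m, 9 were called, all lower in 17 flut, against a background of 3.55% (1.28% higher and 2.28% lower). The median difference of the 34 probe sets was -0.06 at GD18 and -0.29 at GD17, against 0.01 and 0.02 over all probe sets. Probe sets of a gene share their transcripts, and the 9 calls belong to 3 genes. For the sexes, 2 were called in 18 m vs. 18 f, 1 in each direction, with a background of 1.85%. In 17 m vs. 17 f, 6 were called, all higher in males, with a background of 4.1%. Most calls over all probe sets were higher in males there too (3.6% higher and 0.493% lower). Between days, 11 were called in flutamide-treated males (18 flut vs. 17 flut, 10 higher at GD18, background 20.3%), 14 in vehicle males (18 m vs. 17 m, 8 higher, background 25%) and 14 in females (18 f vs. 17 f, 13 higher, background 33.6%). The vehicle males enter both the flutamide and the sex comparisons, so that a pool which moves 17 m moves both with opposite signs. Groups of 3 pools did not overlap in 19.4% of all probe sets in 18 flut vs. 18 m and 28.5% in 17 flut vs. 17 m. The shares were 16.5% in 18 m vs. 18 f and 22.7% in 17 m vs. 17 f. Between days they were 39.4% in flutamide-treated males, 33.2% in vehicle males and 48.4% in females.

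**Figure D2:**
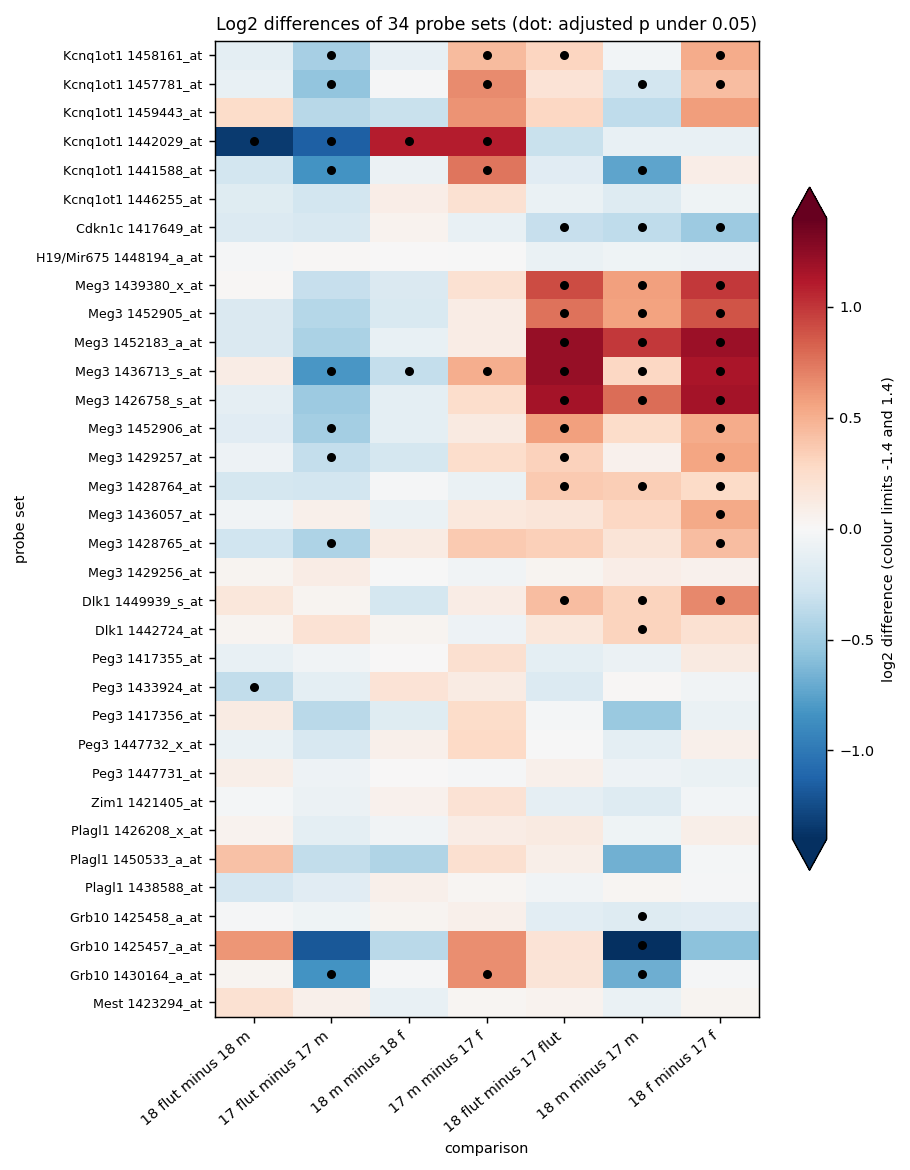
Log2 differences of the 34 probe sets (rows, by gene) in the 7 comparisons between groups (columns), each as the first-named group minus the second. Red is higher and blue lower in the first-named group, and a dot marks an adjusted p under 0.05. The 9 calls of 17 flut minus 17 m are all blue, and the day columns hold their dots mainly in the Meg3 rows.

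Kcnq1ot1 was lower in flutamide-treated males than in vehicle males and higher in vehicle males than in females. By call in the main fit, this held at both days in probe set 1442029_at and at GD17 alone in 3 others. In 1442029_at, the signals were 6.80, 6.48 and 6.74 in 18 flut, against 7.62, 7.92 and 8.50 in 18 m and 6.72, 7.14 and 6.90 in 18 f. Every 18 m pool exceeded every pool of the other GD18 groups. At GD17 the signals were 6.91, 6.71 and 7.32 in 17 flut, against 8.26, 7.95 and 8.15 in 17 m and 7.38, 7.02 and 6.66 in 17 f. The males stood alone again, and the flutamide-treated males and the females overlapped. The difference was -1.34 ± 0.21 (SE) in 18 flut vs. 18 m (2.53-fold lower, adjusted p = 0.0016, limma) and -1.14 ± 0.21 in 17 flut vs. 17 m (2.20-fold lower, adjusted p = 0.0101). The sexual difference was 1.10 ± 0.21 at GD18 (adjusted p = 0.0175) and 1.10 ± 0.21 at GD17 (adjusted p = 0.0061). None of the day comparisons was called for this probe set, and neither was the difference of the flutamide effect between the days (-0.20 ± 0.30, adjusted p = 0.84).

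The flutamide difference of 1442029_at at GD18 was called in all 18 single-pool refits. It was -1.37 without 18 flut 3 (adjusted p = 0.0083), -1.10 without 18 m 3 (adjusted p = 0.0044) and -1.13 without both (adjusted p = 0.014). The sexual difference at GD18 lost its call without 18 f 1 (0.99, adjusted p = 0.098) or 18 f 3 (1.09, adjusted p = 0.074), and the flutamide difference at GD17 without 17 flut 2 (-1.01, adjusted p = 0.054). At GD17 the sexual difference came to 0.73 without 17 m 3, 17 f 2 and 17 f 3 and was no longer called (adjusted p = 0.43), with a single 17 f pool left, and the flutamide difference came to -1.12 (adjusted p = 0.0249).

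In 3 other Kcnq1ot1 probe sets the vehicle males were high at GD17, and neither flutamide nor sex was called at GD18 in the main fit. Probe set 1441588_at read 5.71, 5.86 and 5.71 in 17 flut, against 6.47, 6.77 and 6.56 in 17 m and 6.01, 5.58 and 5.95 in 17 f. At GD18 it read 5.62, 5.63 and 5.56 in 18 flut, against 5.90, 6.02 and 5.66 in 18 m and 5.91, 6.13 and 5.78 in 18 f, so that the 18 flut pools lay below the others by a narrow margin. Its flutamide difference at GD17 was -0.84 ± 0.12 (adjusted p = 0.0025) and its sexual difference 0.75 ± 0.12 (adjusted p = 0.0016). At GD18 its flutamide difference was -0.26 ± 0.12 (adjusted p = 0.28), and with array weights it was called (-0.39, adjusted p = 0.030, limma). The GD17 sexual difference came to 0.61 without the 3 pools with pancreas genes and was no longer called. Vehicle males were lower in 18 m than in 17 m (-0.74 ± 0.12, adjusted p = 0.0003). Probe set 1457781_at was lower in 17 flut than in 17 m (-0.55 ± 0.09, adjusted p = 0.0046) and higher in 17 m than in 17 f (0.66 ± 0.09, adjusted p = 0.0004), and the sexual difference was called also without the 3 pools with pancreas genes (0.79, adjusted p = 0.0137). Probe set 1458161_at, that of the highest mean, showed -0.47 ± 0.10 (adjusted p = 0.0173) and 0.45 ± 0.10 (adjusted p = 0.0139) in the same comparisons. The first lost its call without 17 flut 1, 17 flut 2 or 17 m 2 and the second without 17 m 2 or 17 f 2, with adjusted p up to 0.083, and the second also without the 3 pools with pancreas genes (0.56, adjusted p = 0.12).

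Between the days, probe set 1457781_at shifted in opposite directions in the sexes. It was lower in 18 m than in 17 m (-0.25 ± 0.09, adjusted p = 0.045) and higher in 18 f than in 17 f (0.43 ± 0.09, adjusted p = 0.001), but the male call was kept in only 4 of 18 single-pool refits. Probe set 1458161_at was higher in 18 f than in 17 f (0.52 ± 0.10, adjusted p = 0.0005) and in 18 flut than in 17 flut (0.30 ± 0.10, adjusted p = 0.0416, kept in 8 of 18 single-pool refits), and 18 m minus 17 m was not called. Tested as the sexual difference at GD18 minus that at GD17, 5 of the 34 member probe sets were called, all negative, against a background of 6.54% of all probe sets (2.58% positive and 3.95% negative). These were the Kcnq1ot1 probe sets 1441588_at (-0.83 ± 0.17, adjusted p = 0.0074), 1457781_at (-0.68 ± 0.12, adjusted p = 0.0032) and 1458161_at (-0.56 ± 0.14, adjusted p = 0.023), and the Meg3 probe sets 1436713_s_at and 1429257_at. The call of 1458161_at was lost without 17 m 2, 17 f 2 or 18 f 1, and without the 3 pools with pancreas genes 1441588_at (-0.69, adjusted p = 0.11) and 1458161_at (-0.68, adjusted p = 0.084) were not called. For 1442029_at the same value was 0.00 ± 0.30 (adjusted p = 1.00).

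The remaining Kcnq1ot1 probe sets, 1459443_at and 1446255_at, were not called in any comparison of the main fit. In 1459443_at, 17 flut pools read 7.65, 7.70 and 7.62, against 8.15, 8.13 and 7.85 in 17 m and 7.38, 7.54 and 7.33 in 17 f. These groups did not overlap, yet 18 m ran over 8.22, 7.93 and 6.91, with 18 m 3 lowest, and this widened the common spread. Without 18 m 3, the flutamide difference at GD17 was -0.39 (adjusted p = 0.0406) and the sexual difference 0.62 (adjusted p = 0.0025). Probe set 1446255_at stayed between 3.34 and 4.17 in all pools. Over the 18 pools the 6 probe sets correlated with each other at r of -0.06 to 0.73, with a median of 0.41 over 15 pairs, which is a description of pools that share groups. Where on this transcript each probe set lies was not analysed here.

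**Figure D3:**
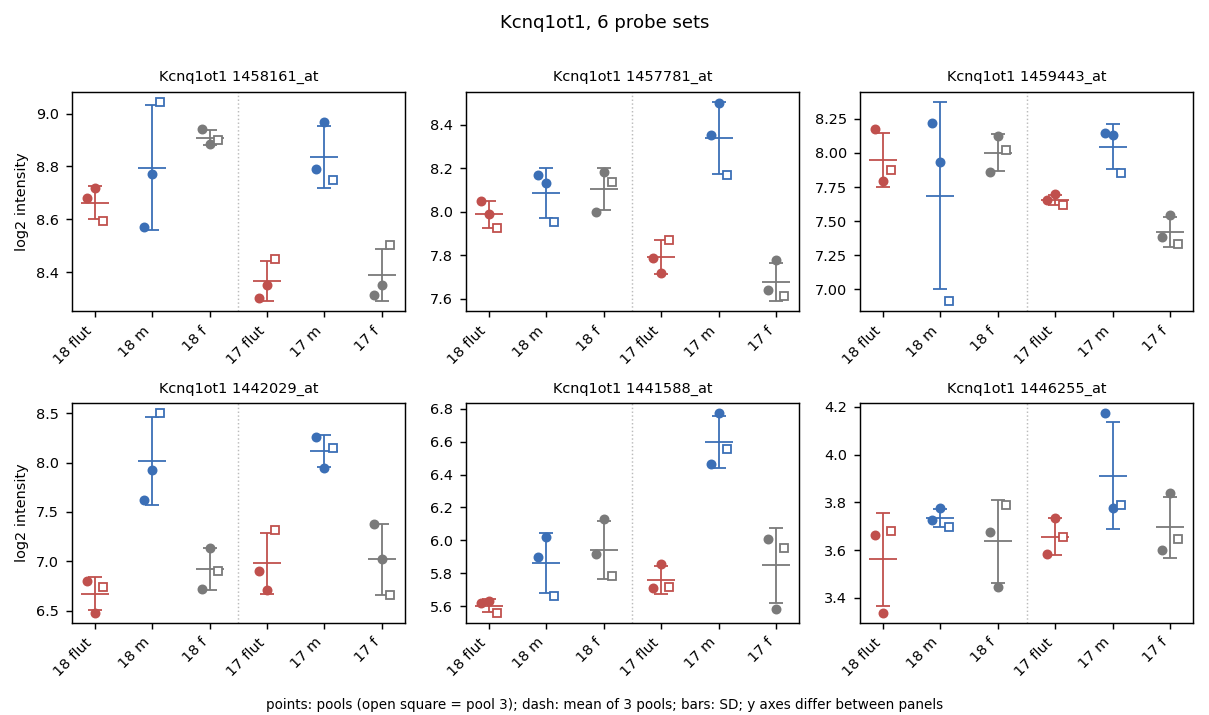
Log2 intensity of the 6 Kcnq1ot1 probe sets by group (x axis), with points for the 3 pools of each group (pool 3 as an open square), dashes for their mean and bars for the SD. In 1442029_at all 18 m and 17 m pools, at 7.62 or above, lie over all other pools, which reach 7.38 at most.

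The groups at GD17 also differed in the control RNAs, which are bacterial and not of the lung. Their 5′ minus 3′ difference lay between -1.47 and -1.43 in 17 flut, against -1.17 to -1.04 in 17 m and -1.03 in 17 f, without overlap. The lung epithelium genes did not overlap between 17 flut and 17 m either, with a median difference of 0.69 over 6 genes, of which 1 was called. The part of either in the GD17 flutamide differences of Kcnq1ot1, Meg3 and Grb10 was not tested. At GD18 the control RNA difference lay between -1.77 and -1.37 in 18 flut, against -2.65 to -1.10 in 18 m and -1.42 to -1.32 in 18 f. Pools of 18 f and 17 f did not overlap in it. The lung epithelium genes were higher at GD18, with median differences of 1.84 in flutamide-treated males, 2.18 in vehicle males and 2.31 in females. The part of either in the day changes, or of the control RNAs in the GD17 sexual differences, was not tested.

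Neighbours of Kcnq1ot1 gave no flutamide call. Of 8 genes of its cluster that were measured, 0 were called in 18 flut vs. 18 m and 0 in 17 flut vs. 17 m, where 4.22% and 2.69% of all genes were called (limma), and 4 and 3 of them had an unadjusted p under 0.05. Tssc4 and the nucleosome assembly protein gene Nap1l4 were higher in 18 m than in 18 f (0.36 ± 0.07, adjusted p = 0.019 and 0.31 ± 0.06, adjusted p = 0.025), both lost without 18 m 1, 18 m 2, 18 f 1 or 18 f 3. Between days, Osbpl5, which encodes an oxysterol-binding protein, was higher at GD18 in flutamide-treated males (0.42 ± 0.09), vehicle males (0.56 ± 0.09) and females (0.42 ± 0.09, and 0.36 without the 3 pools with pancreas genes, adjusted p = 0.061). Tssc4 was lower at GD18 in the same groups, by 0.35, 0.30 and 0.82 on the log2 scale. Phlda2, a maternally expressed restrictor of placental growth, was lower in 18 flut than in 17 flut (-0.32 ± 0.09, adjusted p = 0.023, kept in 13 of 18 single-pool refits) and in 18 f than in 17 f (-0.37 ± 0.09, adjusted p = 0.0059). Without the 3 pools with pancreas genes the female difference of Phlda2 was -0.13 (adjusted p = 0.49). Kcnq1, the potassium channel gene that hosts the Kcnq1ot1 start, was higher in 18 m than in 17 m (0.44 ± 0.12, adjusted p = 0.011, and 0.28 without 18 flut 3 and 18 m 3, adjusted p = 0.058) and in 18 f than in 17 f (0.31 ± 0.12, adjusted p = 0.048, kept in 4 of 18 single-pool refits). Slc22a18, Ascl2 and Cd81 were not called in any comparison (limma), with Ascl2 at 0.33 ± 0.10 in 18 flut vs. 18 m (adjusted p = 0.095).

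Cdkn1c, the imprinted inhibitor of cyclin-dependent kinases also called p57, was lower at GD18 than at GD17 in every group. Its signals were 10.92, 11.35 and 11.02 in 18 flut, against 11.47, 11.41 and 11.37 in 17 flut, where 18 flut 2 lay just under the lowest 17 flut pool. In vehicle males they were 11.16, 11.31 and 11.40 in 18 m, against 11.60, 11.68 and 11.65 in 17 m. In females they were 11.22, 11.31 and 11.20 in 18 f, against 11.70, 11.76 and 11.79 in 17 f. The differences were -0.32 ± 0.09 (adjusted p = 0.018), -0.36 ± 0.09 (adjusted p = 0.0084) and -0.51 ± 0.09 (adjusted p = 0.0003), and the first was lost without 18 flut 1 (-0.23, adjusted p = 0.11), 18 flut 3 (-0.29, adjusted p = 0.08) or 17 flut 1 (-0.30, adjusted p = 0.069). No flutamide or sex comparison of Cdkn1c was called. At GD17 the 17 flut pools all lay below the 17 m pools, by -0.23 ± 0.09 (adjusted p = 0.18), and at GD18 the difference was -0.19 ± 0.09 (adjusted p = 0.29) with overlap.

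The 7 other cyclin-dependent kinase inhibitor genes were all measured, and none was called in either flutamide comparison (limma), with 1 at an unadjusted p under 0.05 in each. Of all genes, 4.22% were called at GD18 and 2.69% at GD17. Cdkn2b, the p15 gene, was higher at GD18 by 1.68 ± 0.23 in flutamide-treated males, 2.54 ± 0.23 in vehicle males and 2.29 ± 0.23 in females. Cdkn3, which encodes a phosphatase of such kinases, was lower by 0.63, 0.46 and 1.17 on the log2 scale in the same order, and it was higher in 18 m than in 18 f (0.48 ± 0.11, adjusted p = 0.036, kept in 9 of 18 single-pool refits). Cdkn1b, the p27 gene, was higher in 18 flut than in 17 flut (0.38 ± 0.11, adjusted p = 0.015, limma). This was lost without 17 flut 2, 17 flut 3 or 18 flut 1. It was also higher in 18 f than in 17 f (0.39 ± 0.11, adjusted p = 0.0087, limma), lost without 18 f 1. The female difference was 0.40 without the 3 pools with pancreas genes and was not called.

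Meg3, a noncoding RNA tied to growth suppression in human cells, was higher at GD18 than at GD17 in every group, and at GD17 it was lower in flutamide-treated than in vehicle males. The probe set with the largest range of group means, 1452183_a_at, read 10.33, 10.75 and 10.50 in 18 flut, against 9.31, 9.21 and 9.39 in 17 flut. It read 10.52, 10.30 and 11.39 in 18 m, against 9.80, 9.81 and 9.63 in 17 m, and 10.97, 10.82 and 10.73 in 18 f, against 9.46, 9.73 and 9.72 in 17 f. Every GD18 pool lay above every GD17 pool. The differences were 1.22 ± 0.19 (2.34-fold, adjusted p = 0.00026), 0.99 ± 0.19 (1.99-fold, adjusted p = 0.0013) and 1.20 ± 0.19 (2.30-fold, adjusted p = 0.00013). Of the 11 Meg3 probe sets, 8 were called higher in 18 flut vs. 17 flut, 6 in 18 m vs. 17 m and 10 in 18 f vs. 17 f, and none was called lower. Pool 18 m 3, with the high liver genes, was the highest 18 m pool in 1452183_a_at, 1439380_x_at and 1452905_at, and without it the male difference of 1452183_a_at was 0.67. Probe set 1428764_at was also called in each day comparison, with 0.37 ± 0.09 in flutamide-treated males, 0.35 ± 0.09 in vehicle males and 0.27 ± 0.09 in females. Its female call was kept in 13 of 18 single-pool refits, and without the 3 pools with pancreas genes neither the vehicle male difference (0.31, adjusted p = 0.06) nor the female one (0.26, adjusted p = 0.22) was called.

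Probe set 1436713_s_at, at GD18, read 10.04, 9.98 and 10.10 in 18 flut, against 10.07, 9.94 and 9.80 in 18 m and 10.35, 10.25 and 10.23 in 18 f. The flutamide-treated and vehicle males overlapped, and all female pools were higher than all male pools. At GD17 it read 8.74, 8.82 and 8.92 in 17 flut, against 9.52, 9.73 and 9.68 in 17 m and 9.16, 9.08 and 9.17 in 17 f. None of the GD17 groups overlapped, with 17 m highest and 17 flut lowest. The flutamide difference was 0.10 ± 0.08 at GD18, not called, and -0.82 ± 0.08 at GD17 (1.76-fold lower, adjusted p = 0.0003). The difference between these was 0.92 ± 0.11 (adjusted p = 0.0109), the single member probe set called in this test, for which 0.364% of all probe sets were called. The sexual difference was -0.34 ± 0.08 at GD18 (adjusted p = 0.0378, kept in 9 of 18 single-pool refits) and 0.51 ± 0.08 at GD17 (adjusted p = 0.0011, and 0.47 without the 3 pools with pancreas genes, adjusted p = 0.12), and the difference between them was -0.85 ± 0.11 (adjusted p = 0.0002). The day change of this probe set was 1.22 in flutamide-treated males, 0.29 in vehicle males and 1.14 in females.

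Other Meg3 probe sets called lower in 17 flut than in 17 m were 1452906_at (-0.48 ± 0.10, adjusted p = 0.0138), 1429257_at (-0.33 ± 0.08, adjusted p = 0.032) and 1428765_at (-0.43 ± 0.12, adjusted p = 0.0494), and these kept their calls in 15, 13 and 2 of 18 single-pool refits. In 1452906_at the pools were 7.87, 7.74 and 7.95 in 17 flut, against 8.47, 8.30 and 8.22 in 17 m, without overlap. Without 18 m 3, whose distance from the other 18 m pools entered the common spread, the total of member probe sets called in 17 flut vs. 17 m was 17, and 1426758_s_at (-0.50), 1439380_x_at (-0.33), 1452183_a_at (-0.44) and 1452905_at (-0.40) were among them. Calls over all 45037 probe sets rose as well, from 1600 with all pools to 3991 without 18 m 3. In 18 flut vs. 18 m no Meg3 probe set was called (limma, 2 at an unadjusted p under 0.05), and the 11 differences ranged down to -0.28 with 8 of them negative.

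Sex differences of Meg3 at GD18 turned on pool 18 m 3. With all pools, 1436713_s_at alone was called. Without that pool, 1436713_s_at was not called (-0.27, adjusted p = 0.053), and 5 other Meg3 probe sets were called lower in 18 m than in 18 f, with 1452905_at at -0.47 (adjusted p = 0.0031), 1439380_x_at at -0.43 (adjusted p = 0.0059), 1452183_a_at at -0.43 (adjusted p = 0.0457), 1426758_s_at at -0.38 (adjusted p = 0.0296) and 1429257_at at -0.31 (adjusted p = 0.0273). Calls over all probe sets in 18 m vs. 18 f, 834 with all pools, rose without 18 m 3 too, so that the gain was not particular to Meg3. The 5 probe sets share their transcripts and correlated with each other at r of 0.83 to 0.99 over the 18 pools. Probe set 1429257_at was also called in the test of the sexual difference between days with all pools (-0.49 ± 0.11, adjusted p = 0.0136), though not without the 3 pools with pancreas genes (-0.46, adjusted p = 0.17). In contrast, 1429256_at was not called in any comparison and stayed between 5.76 and 6.30 in all 18 pools, and 1436057_at was called in 18 f vs. 17 f only (0.53 ± 0.11, adjusted p = 0.001). Over 55 pairs of Meg3 probe sets, r over the 18 pools ran from -0.06 to 0.99 with a median of 0.79, as a description.

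**Figure D4:**
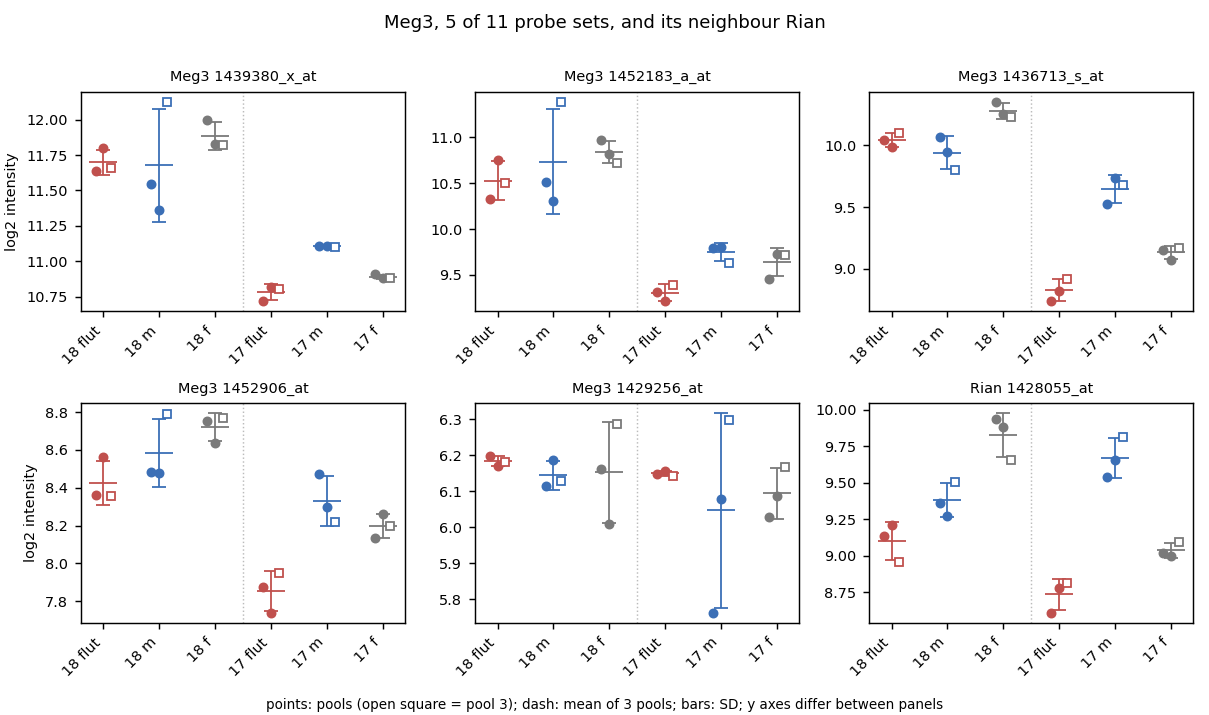
Log2 intensity by group (x axis) of 5 of the 11 Meg3 probe sets and of Rian, with points for the 3 pools (pool 3 as an open square), dashes for their mean and bars for the SD. In 1436713_s_at the 3 groups of GD17 are apart, between 8.74 and 9.73, and in 1429256_at all groups overlap between 5.76 and 6.30.

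Rian and Mirg, noncoding RNAs that follow Meg3 along the maternal chromosome, were both lower in 17 flut than in 17 m. Rian read 8.61, 8.78 and 8.81 in 17 flut, against 9.54, 9.65 and 9.81 in 17 m and 9.02, 8.99 and 9.09 in 17 f. Its difference was -0.94 ± 0.10 (adjusted p = 0.00033), and that of Mirg -0.38 ± 0.08 (adjusted p = 0.021), lost without 17 flut 1, 17 flut 2, 17 m 1 or 17 m 2, with adjusted p up to 0.097. At GD18, Rian read 9.14, 9.21 and 8.96 in 18 flut, against 9.36, 9.27 and 9.50 in 18 m and 9.94, 9.88 and 9.66 in 18 f, and its flutamide difference was not called. The Rian sexual difference was -0.45 ± 0.10 at GD18 (adjusted p = 0.027, kept in 14 of 18 single-pool refits) and 0.63 ± 0.10 at GD17 (adjusted p = 0.0011), and at GD17 it was 0.58 without the 3 pools with pancreas genes (adjusted p = 0.091). Vehicle males were lower at GD18 than at GD17 for Rian (-0.29 ± 0.10, adjusted p = 0.035, kept in 14 of 18 single-pool refits), whereas females (0.79 ± 0.10) and flutamide-treated males (0.37 ± 0.10, adjusted p = 0.011) were higher.

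Dlk1, the paternally expressed partner of Meg3 that encodes a transmembrane inhibitor of adipocyte differentiation, was also higher at GD18. Probe set 1449939_s_at read 12.33, 12.40 and 12.38 in 18 flut, against 11.94, 11.91 and 11.97 in 17 flut. It read 12.05, 12.17 and 12.42 in 18 m, against 11.96, 11.88 and 11.85 in 17 m, and 12.56, 12.38 and 12.44 in 18 f, against 11.64, 11.85 and 11.87 in 17 f. No GD18 pool overlapped with the GD17 pools of the same treatment and sex. The differences were 0.43 ± 0.09 (adjusted p = 0.0017), 0.32 ± 0.09 (adjusted p = 0.0132, lost without 18 m 3 at 0.21) and 0.67 ± 0.09 (adjusted p = 1.5e-05). The second probe set, 1442724_at, was called higher in 18 m than in 17 m alone (0.32 ± 0.10, adjusted p = 0.0336), and this too was lost without 18 m 3. Neither probe set was called for flutamide or sex, but without 18 m 3 1449939_s_at was lower in 18 m than in 18 f (-0.35, adjusted p = 0.017). With array weights, 1449939_s_at was called higher in 18 flut than in 18 m (0.21, adjusted p = 0.044) and lower in 18 m than in 18 f (-0.30, adjusted p = 0.010).

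Grb10 encodes an adaptor protein that restrains signalling of the insulin and insulin-like growth factor receptors, and its probe sets differed. Probe set 1430164_a_at read 7.94, 8.06 and 7.96 in 17 flut, against 8.56, 8.97 and 8.93 in 17 m and 8.11, 8.20 and 8.22 in 17 f. The 17 m pools stood above both other GD17 groups. The flutamide difference was -0.83 ± 0.14 at GD17 (1.78-fold lower, adjusted p = 0.0064) and the sexual difference 0.65 ± 0.14 (adjusted p = 0.0136, lost without 17 m 2 at 0.57), and neither was called at GD18. Without the 3 pools with pancreas genes, the flutamide difference was -0.78 (adjusted p = 0.0311), and the sexual difference kept its size at 0.66 and lost its call (adjusted p = 0.28). This probe set was lower in 18 m than in 17 m (-0.68 ± 0.14, adjusted p = 0.002).

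In the Grb10 probe set 1425457_a_at, 18 m 3 read 6.44 against 9.63 and 9.13 in the other 18 m pools. Its call in 18 m vs. 17 m (-1.61 ± 0.52, adjusted p = 0.0308) came to -0.63 without that pool. In the GD17 comparison of 17 flut vs. 17 m it had 8.75, 8.91 and 8.80 against 9.59, 10.28 and 10.16, without overlap, and the difference of -1.18 was not called with all pools and was called without 18 m 3 (adjusted p = 0.0012). The Grb10 probe set of the highest mean, 1425458_a_at, was lower in 18 m than in 17 m (-0.19 ± 0.06, adjusted p = 0.0316, kept in 14 of 18 single-pool refits) and was called nowhere else. The same pool was the lowest 18 m pool in the Plagl1 probe set 1450533_a_at, at 6.80 against 8.44 and 8.59, and in the Peg3 probe set 1417356_at, at 8.36 against 9.67 and 9.82.

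Peg3 and Zim1, zinc finger genes of a shared cluster with Peg3 expressed from the paternal chromosome, showed a single call between them with all pools. Peg3 probe set 1433924_at read 11.28, 11.34 and 11.22 in 18 flut, against 11.43, 11.68 and 11.78 in 18 m. The difference was -0.35 ± 0.08 (adjusted p = 0.0188), but it was no longer called without 18 flut 1 (-0.35, adjusted p = 0.061), 18 flut 3 (-0.32, adjusted p = 0.086), 18 m 2 (-0.32, adjusted p = 0.068) or without 18 flut 3 and 18 m 3 (-0.24, adjusted p = 0.12). Probe set 1417356_at turned on pool 18 m 3. With all pools its difference in 18 flut vs. 18 m was 0.12, and without 18 m 3 it was -0.34 (adjusted p = 0.02). Its sexual difference at GD18 was -0.17 with all pools and 0.29 without 18 m 3 (adjusted p = 0.044). At GD17 the flutamide difference of -0.38 and the sexual difference of 0.26 were not called with all pools and were called without 18 m 3 (adjusted p = 0.0061 and 0.046). The Peg3 probe set of the highest mean, 1417355_at, stayed between 12.41 and 12.77 and was not called in the main fit. With array weights it was called lower in 18 flut than in 18 m (-0.25, adjusted p = 0.018) and higher in 17 m than in 17 f (0.24, adjusted p = 0.045). Zim1 stayed between 4.95 and 5.37.

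H19/Mir675, Plagl1 and Mest showed no called difference in any comparison with all pools (limma). At an unadjusted p under 0.05 there were 0 of 7 differences for H19/Mir675, 2 of 21 for Plagl1 and 1 of 7 for Mest. Without 18 m 3, Plagl1 1450533_a_at was called lower in 17 flut than in 17 m (-0.34, adjusted p = 0.023), and with array weights Plagl1 1438588_at was called lower in 18 flut than in 18 m (-0.26, adjusted p = 0.046). Plagl1 encodes a zinc finger factor that regulates other imprinted genes, and Mest a paternally expressed member of the hydrolase fold family. The H19/Mir675 probe set lay between 13.81 and 14.03 in all pools, and its 7 differences between groups ran from -0.09 to 0.01. The Mest probe set read 13.11, 13.13 and 13.13 in 18 flut, against 12.98, 13.08 and 12.68 in 18 m, without overlap but not called, and its 7 differences ran from -0.10 to 0.21. Plagl1 probe set 1426208_x_at stayed between 12.88 and 13.17, and its differences ran from -0.13 to 0.12.

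**Figure D5:**
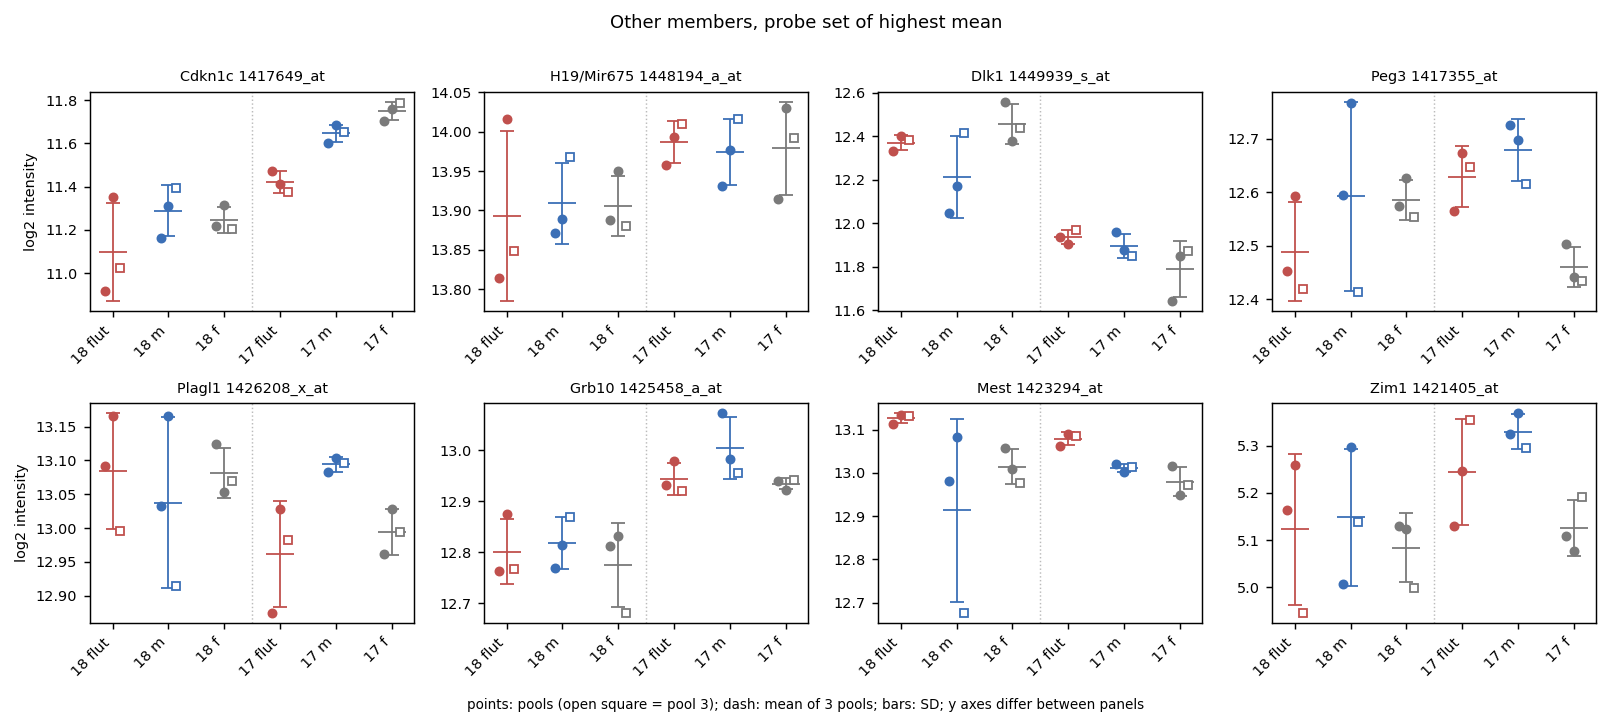
Log2 intensity by group (x axis) of the probe set of the highest mean for Cdkn1c, H19/Mir675, Dlk1, Peg3, Plagl1, Grb10, Mest and Zim1, with points for the 3 pools (pool 3 as an open square), dashes for their mean and bars for the SD. The y axes differ in span, with 13.81 to 14.03 for H19/Mir675 and 10.92 to 11.79 for Cdkn1c.

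Of 32 other imprinted genes listed, 28 were measured, and 1 was called in 18 flut vs. 18 m and 2 in 17 flut vs. 17 m, against 4.22% and 2.69% of all genes. Ube3a, an E3 ubiquitin ligase gene imprinted in neurons, was lower in 18 flut than in 18 m (-0.64 ± 0.11, adjusted p = 0.0026, and -0.45 without 18 flut 3 and 18 m 3, adjusted p = 0.016), and Inpp5f (-0.40 ± 0.10, adjusted p = 0.035) and the proteoglycan gene Dcn (-0.75 ± 0.20, adjusted p = 0.047) were lower in 17 flut than in 17 m, with the calls kept in 12 and 5 of 18 single-pool refits. None was called between the sexes (limma), with 3 at GD18 and 4 at GD17 at an unadjusted p under 0.05. Few of all genes were called there either, 1.68% at GD18 and 1.67% at GD17. Between days, 4, 9 and 11 were called in flutamide-treated males, vehicle males and females, most of them lower at GD18, where 26.7%, 30.1% and 39.6% of all genes were called. Peg12 was lower by 0.94, 1.03 and 1.48 on the log2 scale, and the amino acid transporter gene Slc38a4 by 0.54, 0.71 and 0.86, in that order. Ppp1r9a was higher by 0.34 ± 0.10 (kept in 14 of 18 single-pool refits), 0.49 ± 0.10 and 0.68 ± 0.10. Igf2, the paternally expressed growth factor beside H19, was not called in any comparison. Ins2, the pancreatic insulin gene next to it, was lower in 18 f than in 17 f (-2.29 ± 0.67, adjusted p = 0.014), and the difference was -0.13 without the 3 pools with pancreas genes (adjusted p = 0.53). Of the neighbours of Peg3, Grb10 and Mest, the dopa decarboxylase gene Ddc was higher in 18 flut than in 17 flut (0.70 ± 0.13) and in 18 m than in 17 m (0.46 ± 0.13, lost without 17 m 2 or 18 m 3), and Usp29, Zim3, Copg2 and Klf14 were not called in any comparison.

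Long noncoding RNAs outside imprinted clusters gave 1 flutamide call. Of 20 listed, 17 were measured, and at GD17 none was called for flutamide (limma, 4 at an unadjusted p under 0.05), against 4.22% of all genes at GD18 and 2.69% at GD17. In 18 flut vs. 18 m, 9 of the 17 had an unadjusted p under 0.05 (limma). The share of all genes at that level was not counted, so the 9 have no background. The median difference of the 17 there was -0.15, against 0.003 over all genes. Gas5, which accumulates in growth-arrested cells, was lower in 18 flut than in 18 m (-0.30 ± 0.06, adjusted p = 0.015), which was lost without 18 flut 1, 18 flut 3 or 18 m 1. Neat1, the scaffold RNA of nuclear paraspeckles, was higher at GD18 by 1.42 ± 0.19 in flutamide-treated males, 1.67 ± 0.19 in vehicle males and 1.68 ± 0.19 in females. The small nucleolar RNA host gene Snhg5 was lower by 0.55, 0.56 and 0.87 on the log2 scale, and Ftx, a regulator of Xist, by 0.51, 0.53 and 0.62.

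Genes whose pattern over the 18 pools was most like that of a member were ranked among 18192 genes by Pearson's r, as a description with no test, since pools share groups. Kcnq1ot1 probe set 1442029_at was most like the zinc finger genes Zfp995 (r = 0.92), Zfp930 (0.91), Zfp518a (0.91) and Zfp943 (0.90) and the chromatin remodeller gene Atrx (0.90). Meg3 probe set 1452183_a_at was most like Acadm, an enzyme of fatty acid oxidation (r = 0.96), Insr, the insulin receptor (0.96), Pgm1 (0.96), Lrp1 (0.96) and Ank3 (0.96). Cdkn1c was most like Hs6st2 (r = 0.96), Gpsm2 (0.95), B4galt6 (0.94), Hddc2 (0.94) and Tent5a (0.93).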

How the data were processed

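Lung RNA of 18 pools in 6 groups was measured on Affymetrix MOE430 2.0 arrays after oligo-dT primed labelling. The authors extracted the images with GCOS, and background subtraction, normalization and summary used Robust Multiarray Analysis (RMA). The deposited values are intensities on a linear scale, whose log2 was taken here. Precision is limited by 3 pools per group. From 45101 probe sets, 64 control probe sets were left out. A mean for each group was fitted with limma 3.58.1 (R 4.3.3) over all pools, with 12 residual degrees of freedom, and Benjamini-Hochberg adjustment over 45037 probe sets within each comparison. The fit was tested on simulated data. Gene names came from the platform annotation of 2016, in which 34945 probe sets have 1 symbol, 932 several and 9160 none. The members and gene lists were chosen with earlier results of these data known. Text names all members, every Kcnq1ot1 and Meg3 probe set, for others the probe set of the highest mean and any other called, up to 4 genes a list with the smallest p, and the cluster neighbours of members. Lists use 1 probe set per gene, of the highest mean. Other member probe sets, values without a pool and Igf2 were named after their values were seen. CCAAT was searched after the sequences were seen, and the androgen receptor motif was set earlier. Alternatives were other scaling, bright probe sets, array weights, a replicate block and leaving out pools.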

Additional observations from a re-analysis of the deposited data

Results flagged for a closer look

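In each result below, a flutamide or sexual difference at GD18 differed from that at GD17 by a test of the difference itself (limma, Benjamini-Hochberg over all probe sets). The flutamide difference of Meg3 1436713_s_at was higher at GD18 by 0.92 ± 0.11 (SE, adjusted p = 0.0109), and that of Rian by 0.66 ± 0.14 (adjusted p = 0.049, kept in 2 of 18 single-pool refits). The sexual difference, male minus female, was lower at GD18 for Meg3 1436713_s_at (-0.85 ± 0.11, adjusted p = 0.0002) and 1429257_at (-0.49 ± 0.11, adjusted p = 0.0136), for Rian (-1.08 ± 0.14, adjusted p = 0.00018), and for Kcnq1ot1 1441588_at (-0.83 ± 0.17, adjusted p = 0.0074), 1457781_at (-0.68 ± 0.12, adjusted p = 0.0032) and 1458161_at (-0.56 ± 0.14, adjusted p = 0.023). It was higher at GD18 for the Kcnq1ot1 neighbours Tssc4 (0.52 ± 0.10, adjusted p = 0.0047) and Nap1l4 (0.42 ± 0.09, adjusted p = 0.011). Without the 3 pools with pancreas genes, these came to 0.51 and 0.44 and lost their calls. Calls were also lost there for Meg3 1429257_at (-0.46) and for Kcnq1ot1 1441588_at (-0.69) and 1458161_at (-0.68). The sexual difference between days kept its call for Meg3 1436713_s_at, Rian and Kcnq1ot1 1457781_at. Leaving out 17 m 3, 17 f 2 and 17 f 3, the pools with pancreas genes, left a single 17 f pool. Calls of the sexual difference between days then fell both among the members and over all probe sets.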

How the results depend on the processing

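Of 75 called differences of members, Rian and Mirg, 50 kept their call in all 18 refits without a single pool, 41 kept it in all alternatives that included them, and 0 changed direction. The fit of the brighter probe sets included 70 of the 75. Over the refits without a single pool, the member probe sets called ranged from 1 to 3 for 18 flut vs. 18 m, 4 to 17 for 17 flut vs. 17 m, 0 to 8 for 18 m vs. 18 f, 4 to 10 for 17 m vs. 17 f, 9 to 12 for 18 flut vs. 17 flut, 10 to 16 for 18 m vs. 17 m, 13 to 17 for 18 f vs. 17 f, 1 to 5 for the difference of the flutamide effect between days and 4 to 12 for that of the sexual difference. Calls over all probe sets also ranged, from 411 to 3991 for 17 flut vs. 17 m. For 18 m vs. 18 f they ran from 187 to 2970. With array weights, which gave 18 m 3 the lowest weight (0.17), the member counts were 6 for 18 flut vs. 18 m, 15 for 17 flut vs. 17 m, 8 for 18 m vs. 18 f, 4 for the flutamide effect between days and 12 for the sexual difference between days. Over all probe sets, 5680, 3952, 4794, 685 and 5837 were called with array weights in this order. The main fit had 1777, 1600, 834, 164 and 2944. Without 18 flut 3 and 18 m 3, the member counts were 1, 17, 6, 2 and 9 in the same order, beside 1901, 3590, 2651, 152 and 4409 over all probe sets. Without 17 m 3, 17 f 2 and 17 f 3, they were 1 for 18 m vs. 18 f, 1 for 17 m vs. 17 f, 9 for 18 m vs. 17 m and 2 for the sexual difference between days. That last fit left a single 17 f pool, and calls over all probe sets fell in these comparisons too. Restricting the fit to the brighter probe sets gave 2 member calls for the flutamide effect between days, with 289 called in all. Centring each array or repeating quantile normalization moved no count by over 1.5 times. With the replicate block, 18 m vs. 18 f had 1 call and the other counts stayed within 1.5 times, but the numbers do not pair the pools, since deviations of same-numbered pools correlated at a median of -0.03 over 45 pairs, against 0.01 for different numbers.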
